A study of Homo sapiens with 4 samples.

Results

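MYC, PVT1 and MINCR are a proto-oncogene and 2 long non-coding RNAs (lncRNAs) on the long arm of chromosome 8, and reads at all 3 were measured in RNA immunoprecipitation sequencing (RIP-seq) of the kinase AKT1. They are represented here by the peaks, stretches of the genome in which the authors' peak caller found immunoprecipitated reads, that overlap the GRCh38 span of one of these genes by at least 1 bp, introns included. In the Flag-AKT1 E17K list 7 of 4838 peaks met this rule, 3 at MYC, 3 at PVT1 and 1 at MINCR. In the Flag-AKT1 WT list 0 of 808 peaks met it, and that list has 0 peaks on the whole of chromosome 8. The cells were MDA-MB-231, an established line of triple-negative breast cancer, transfected with a plasmid for Flag-tagged AKT1 that was either wild type (labelled AKT wild-type) or carried the activating E17K mutation (labelled AKT E17K mutant). For each plasmid there was 1 library of RNA recovered with the Flag antibody and 1 input library, for which 5% of the lysate was set aside, so that 4 libraries were made in all and no condition had a replicate. The transfected AKT1 was expressed beside the AKT1 of the cells themselves.

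MYC encodes a transcription factor that pairs with MAX and drives genes of cell growth, ribosome production and metabolism, and its mRNA and protein are both short-lived. AKT lies upstream of MYC, since it inhibits the kinase GSK3B, which marks MYC protein for destruction. PVT1 is transcribed from the region next to MYC, like MYC from the plus strand, is often amplified together with it in breast cancer and hosts several microRNAs. MINCR, the MYC-induced long non-coding RNA, lies nearer to the end of the chromosome and was named for its response to MYC in lymphoma cells.

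The fold of a peak was its immunoprecipitate reads over its control reads, not scaled for library size because the lists give no totals, so depth is known only inside peaks. The control column is not named in the lists and was taken to be the input library, although the protocol also mentions control IgG. Peaks for Flag-AKT1 E17K held 11 to 19041 immunoprecipitate reads each, and their median fold was 2.18. A peak entered the list through its immunoprecipitate reads, so a fold above 1 at a member is no finding, and only differences between peaks are described. Intervals of folds and shares are 95% Wilson intervals, which cover counting error only. AKT1, which the plasmid carries, took 15.1% of the immunoprecipitate and 19.7% of the control reads of the list. The mesenchymal genes VIM, CAV1, CD44 and AXL, typical of MDA-MB-231, had 13 peaks in total in this list, while CDH1 and ESR1 had 0 peaks. Since peaks lie on few chromosome strands, 0 peaks at a gene are no measure of its expression. In the Flag-AKT1 WT list the mesenchymal genes had 0 peaks as well. The submitters' processing notes name hg18, but 97.8% of the 912 chromosome 8 peaks lay in a gene span of GRCh38, compared to 56.0% after a shift of 1000000 bp, and positions were read as GRCh38. Strand labels ran opposite to the annotated strand in 99.6% of 3181 Flag-AKT1 E17K peaks with 1 coding gene of known strand, all on other chromosomes. On chromosome 8 the list has 359 peaks labelled minus, MYC and PVT1 among them, and 553 labelled plus, MINCR among them.

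MYC was the best covered of the 3 genes, with 738 immunoprecipitate and 332 control reads in its 3 peaks, all labelled minus. Its fold was 2.22 (interval 1.95 to 2.53). The first peak, on chromosome 8 from 127735801 to 127737000, held 62 immunoprecipitate and 20 control reads, a fold of 3.10 (interval 1.88 to 5.11). The second, from 127738201 to 127739400, had 254 immunoprecipitate and 119 control reads, which gives a fold of 2.13 (interval 1.72 to 2.65). The third, from 127740401 to 127742000, had 422 and 193, for a fold of 2.19 (interval 1.84 to 2.59). Reads thus grew from the lower to the higher coordinates of the gene in both libraries, and the third peak held 57.2% of the immunoprecipitate reads of MYC. Per kilobase of peak the immunoprecipitate level was 51.7 reads in the first, 212 in the second and 264 in the third, with 16.7, 99.2 and 121 control reads per kilobase. The second and the third ranked 4 and 2 by immunoprecipitate reads per kilobase among the 359 minus-labelled peaks of the chromosome, and 4 and 2 by control reads per kilobase as well. The first ranked 142 by immunoprecipitate and 208 by control reads per kilobase.

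The peaks of MYC covered 53.2% of its 7.52 kb span and left gaps of 1200 and 1000 bp between them. Their edges lie on a grid of 200 bp, which is the resolution of these positions, and exon positions were not used here. The first peak began 367 bp after the start of the span and the third ended 951 bp before its end. One further peak lay 250 bp beyond the end of the span, from 127743201 to 127743600, in no annotated gene, with 12 immunoprecipitate and 5 control reads (fold 2.40, interval 0.882 to 6.53). It falls just outside the rule and is not counted as MYC. In pairs, the 3 peaks of MYC differed in fold by less than counting error allows (Fisher's exact test, two-sided, lowest p = 0.233, adjusted p = 0.380 over 6 pairs of peaks at MYC and PVT1).

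**Figure D1:**
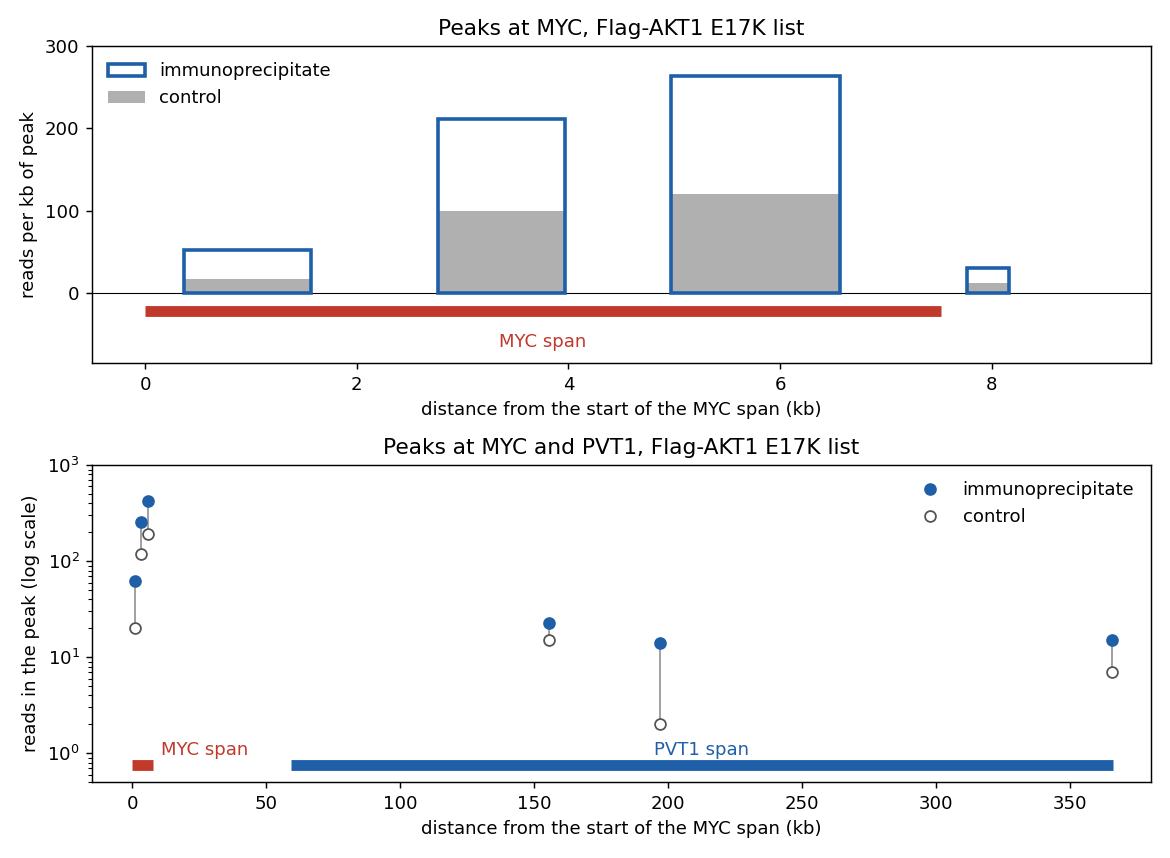
Reads at the peaks of MYC and PVT1 in the Flag-AKT1 E17K list, against the distance in kb from the start of the MYC span. Above, reads per kb of peak at MYC, immunoprecipitate as blue outlines and control as grey bars, both drawn from 0, with the unannotated peak to the right of the span. Below, reads per peak on a log scale, where a grey line joins both libraries of a peak. The 3 MYC peaks hold 62 to 422 immunoprecipitate reads and the 3 PVT1 peaks 14 to 23.

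PVT1, which begins 51.6 kb beyond the end of MYC, had far fewer reads over a far longer span. Its 3 peaks held 52 immunoprecipitate and 24 control reads, a fold of 2.17 (interval 1.34 to 3.50), and covered 0.540% of its 307 kb span. The first, from 127890601 to 127891400, had 23 and 15, which gives a fold of 1.53 (interval 0.809 to 2.91). The second, from 127932201 to 127932800, had 14 and only 2, which gives a ratio of 7 (interval 1.78 to 27.6). The third, from 128101001 to 128101400, had 15 and 7, which gives a fold of 2.14 (interval 0.898 to 5.11), and reached 144 bp past the end of the span. The first peak therefore had the lowest and the second the highest fold of all 7 member peaks. The test between these 2 peaks gave p = 0.0618 in Fisher's exact test (adjusted p = 0.371), and at 2 control reads the difference was not detectable. All 3 peaks were labelled minus, as at MYC, and overlapped no other annotated gene. The RefSeq table places 4 microRNA genes (MIR1204, MIR1205, MIR1206 and MIR1207) inside the PVT1 span, and 0 peaks overlapped any of them.

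MINCR had 1 peak, from 143280651 to 143280855, with 11 immunoprecipitate and 5 control reads. Its fold was 2.2, with an interval from 0.799 to 6.06 that also holds equal reads in both libraries. The peak is 205 bp wide, the smallest width among plus-labelled peaks of the chromosome, and 11 is the smallest number of immunoprecipitate reads of any peak in the list. It lies 496 bp after the start of the 1.55 kb span, which it covered to 13.3%. Per kilobase of peak MINCR held 53.7 immunoprecipitate and 24.4 control reads, compared to 28.9 and 13.3 at PVT1 and 184 and 83.0 at MYC. The order MYC, MINCR, PVT1 was the same in both libraries. MINCR carries the other label, though, and plus-labelled peaks of the chromosome had a median width of 205 bp and a median of 92.7 immunoprecipitate reads per kilobase, compared to 600 bp and 43 reads for minus-labelled ones. The MINCR peak was at percentile 8.05 of its label on this scale. Its level per kilobase therefore cannot be set directly against those of MYC and PVT1. The level of MINCR rests on 16 reads and includes no part of the gene outside its peak.

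The mRNA and the lncRNAs had similar folds. The odds of a read coming from the immunoprecipitate at MYC were 1.03 times those at PVT1 (95% exact interval 0.594 to 1.73, two-sided Fisher's exact test p = 0.899). MYC against MINCR gave 1.01 (interval 0.273 to 3.19, Fisher's exact p = 1), and PVT1 against MINCR gave 0.985 (interval 0.241 to 3.51, Fisher's exact p = 1). After Benjamini-Hochberg adjustment over these 3 pairs every p was 1. These tests compare the reads of 2 libraries and not conditions. The intervals leave room for a difference of 1.73 times between MYC and PVT1 and of over 3 times where MINCR is involved.

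**Figure D2:**
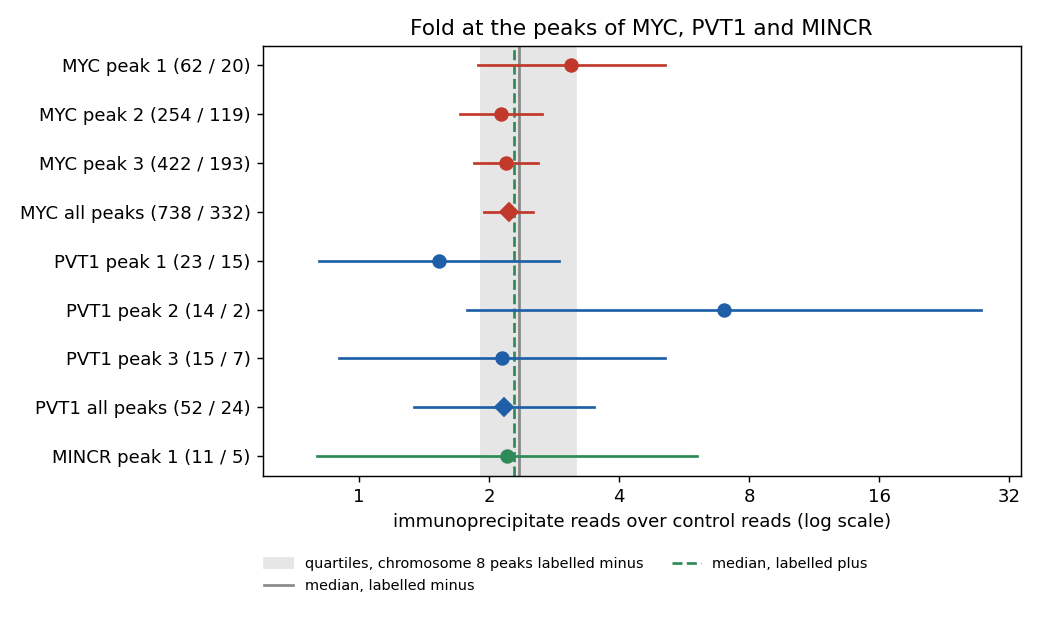
Fold (immunoprecipitate over control reads, log axis) of each member peak and of all peaks of MYC and of PVT1, with the 2 read numbers in brackets and 95% Wilson intervals as bars. The grey band runs from the lower to the upper quartile of the chromosome 8 peaks labelled minus, and lines mark the medians by label. The 3 summed folds lie between 2.17 and 2.22, and the interval narrows from MINCR to MYC as reads increase.

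None of the 7 member peaks passed a test against the rest of the Flag-AKT1 E17K list. In Fisher's exact test of each peak against all others, with Benjamini-Hochberg adjustment over 4838 peaks, 0.269% of all peaks had an adjusted p under 0.05, and 0 of the 7 members did. An unadjusted p under 0.05 in that exact test was found for 8.78% of all peaks and for 0 of the 7, where the lowest was 0.0796 for the first MYC peak (adjusted p = 0.647). The exact binomial test against the median of the list, which called 31 peaks (0.641%) in place of 13, called 0 of the 7 as well (lowest p = 0.175, adjusted p = 0.797). The MINCR peak (11 and 5 reads) and the second PVT1 peak (14 and 2 reads) are too small for an enrichment to pass either test with adjustment. For them the absence of a call is therefore no finding. A fold of at least 4, with control reads counted as at least 3, was reached by 8.54% of the peaks of the list, by 13.6% of the minus-labelled peaks of chromosome 8 and by 8.5% of the plus-labelled ones. Of the members 1 reached it, the second PVT1 peak, at 4.67 on this scale.

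Beside the other peaks of chromosome 8 with the same label, MYC stood at their common ratio. The 356 other minus-labelled peaks held 17317 immunoprecipitate and 7799 control reads, and the odds at MYC were 1.0 times theirs (exact interval 0.876 to 1.15, Fisher's exact p = 1). A difference from this ratio of more than 1.15 times in either direction thus lies outside the interval. For PVT1 the odds were 0.976 times those of the other minus-labelled peaks (interval 0.590 to 1.66, Fisher's exact p = 0.902). For MINCR they were 1.10 times those of the 552 other plus-labelled peaks (interval 0.353 to 4.05, Fisher's exact p = 1), and over the 3 genes every adjusted p was 1. Against all other peaks of the list in place of chromosome 8, the odds at MYC were higher by 0.19 on the log2 scale (Fisher's exact p = 0.0487), and without the AKT1 peaks by 0.11 (p = 0.254). By fold, the 3 MYC peaks had the percentiles 74.0, 37.3 and 40.9 among minus-labelled peaks, the 3 PVT1 peaks 6.96, 93.5 and 37.7, and the MINCR peak 45.8 among plus-labelled ones. The first and the second PVT1 peak thus lay near opposite ends of the range, and the third lay in its lower middle beside both well covered MYC peaks. Folds spread more where reads were few. Among minus-labelled peaks the quartiles were 1.86 and 3.75 in the 120 peaks of fewest immunoprecipitate reads (11 to 17) and 1.96 and 2.56 in the 120 of most (36 to 773). Control reads were counted as at least 3 for these quartiles.

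**Figure D3:**
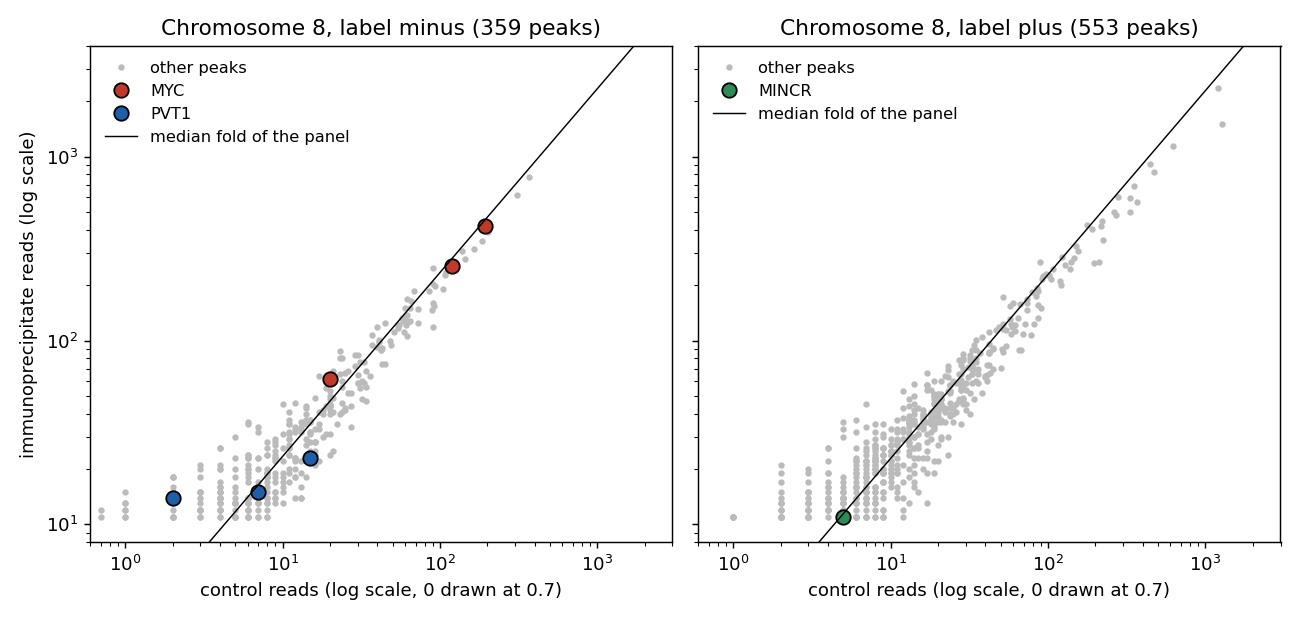
Immunoprecipitate against control reads of all chromosome 8 peaks of the Flag-AKT1 E17K list, both axes logarithmic, with the minus-labelled peaks on the left and the plus-labelled ones on the right. Grey points are other peaks and the line is the median fold, 2.34 on the left and 2.29 on the right. The second and the third MYC peak sit among the best covered of their panel, and the MINCR peak at the lower edge of its own. The first MYC peak is at percentile 80.2 of its panel by immunoprecipitate reads.

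Among genes, MYC ranked 3 of 127 coding genes with a minus-labelled peak on chromosome 8 by summed immunoprecipitate reads, after SLC39A14 (806 reads), a zinc transporter, and LY6E (773 reads), a membrane-anchored surface protein. Per kilobase of peak it also ranked 3, after LY6E (483 reads) and EIF4EBP1 (226 reads), the translation repressor that mTOR phosphorylates downstream of AKT. By fold MYC ranked 74 of these 127. It held 4.09% of the immunoprecipitate and 4.08% of the control reads in minus-labelled peaks, whereas PVT1 held 0.288% and 0.295%. Of 22 genes that the RefSeq table classes as lncRNA and that had a chromosome 8 peak, PVT1 and MINCR were the only 2 without a peak in a coding span. Non-coding genes of other classes, such as the antisense transcript TNFRSF10B-AS1, a transcribed pseudogene in that table, are not among the 22. PVT1 ranked 5 of 7 lncRNA genes with minus-labelled peaks by immunoprecipitate reads, and MINCR shared the last rank of 15 with plus-labelled ones. The reads of the other 20 lncRNA genes were not told apart here from those of the coding genes they overlap, since gene strands were not available for chromosome 8. The ranks among lncRNA genes may therefore include reads of coding genes.

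Peaks most like the members were chosen by the distance of log2 immunoprecipitate and log2 control reads, over these 2 libraries, among chromosome 8 peaks of the same label. The nearest to the first MYC peak was at EIF4EBP1 (68 and 21 reads, distance 0.151), and the nearest to the second was another peak of EIF4EBP1 (248 and 113 reads, distance 0.0822). The third MYC peak was nearest to CYC1, a subunit of respiratory complex III (388 and 201 reads, distance 0.135). The first PVT1 peak was nearest to SLC39A14 (24 and 15 reads, distance 0.0614). The second and the third peak of PVT1 had the same reads as peaks at MRPL15 and NDUFB9 (14 and 2) and at SPAG1 (15 and 7). The MINCR peak had the same reads as peaks at TNFRSF10A, KAT6A and PRKDC (11 and 5). Folds were ranked with control reads counted as at least 3. The highest among the other minus-labelled peaks were at TGS1 (21 and 3 reads, ratio 7, interval 2.23 to 22.0) and PHF20L1 (20 and 3 reads). DOCK5 and PSCA followed (26 and 4 reads each). Among plus-labelled peaks the highest were at DLC1 (36 and 5 reads, ratio 7.20, interval 2.91 to 17.8), PRKDC (21 and 2 reads) and ARMC1 (20 and 3 reads). Without that floor some ratios were higher, such as at a minus-labelled FAM91A1 peak (15 and 1 reads). The lowest folds were at MTDH (14 and 12 reads), ATP6V1B2 and an unannotated stretch (14 and 13 reads each) with the label minus, and at PRKDC (12 and 12 reads) and NSMAF (13 and 17 reads) with the label plus. Plus-labelled peaks at TNFRSF10B (15 and 15 reads), ASAP1 (13 and 13 reads) and PLEC (19 and 19 reads) had the same fold as the one at PRKDC.

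Around MYC and PVT1, peaks of the same label were far apart. The next minus-labelled peak before MYC was at MTSS1, 3180 kb away (11 and 5 reads), and the next after PVT1 was at EFR3A, 3848 kb away (19 and 10 reads). The nearest plus-labelled peak to MINCR was at TOP1MT, the mitochondrial topoisomerase I, 28.5 kb away (11 and 3 reads). A list of 33 neighbours on the chromosome arm, of which the table names 32, had 7 genes with a peak, all coding, and the lncRNAs PCAT1, CASC8, CASC11, CCAT1 and CCDC26 had none. ASAP1, a GTPase-activating protein of cell adhesion sites, had 251 and 124 reads in 9 peaks (fold 2.02, interval 1.63 to 2.51). CYRIB, a regulator of the actin cytoskeleton, had 176 and 83 reads in 7 peaks (fold 2.12, interval 1.63 to 2.75), and LRATD2 had 79 and 44 in 5 peaks (fold 1.80, interval 1.24 to 2.59). The 25 peaks of these 7 genes had a median fold of 2.18, as had the whole list, and 0 passed Fisher's exact test, had an unadjusted p under 0.05 in it or passed the binomial test.

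Genes connected to MYC by function were described by lists, and since peaks lie on few chromosome strands, a gene on a strand without them has no measurement. Of 13 genes of the MYC dimerization network, 7 lay on a chromosome strand with at least 10 peaks in the Flag-AKT1 E17K list, chromosome 8 counted as such, and MYC itself was the only one with a peak. Of 15 cofactors of MYC, 6 lay on such strands and 2 had peaks. RUVBL2, an ATPase of chromatin remodelling complexes, had 321 and 155 reads (fold 2.07, interval 1.71 to 2.51). The acetyltransferase KAT5 had 1 peak with the label minus, opposite to its annotated strand as in most genes (56 and 34 reads, fold 1.65, interval 1.08 to 2.51). A plus-labelled peak overlaps part of it (46 and 18 reads, fold 2.56, interval 1.49 to 4.38), and the 2 cannot be summed for KAT5. Of 15 genes of MYC protein turnover, 8 lay on such strands and 2 had peaks, both subunits of the phosphatase PP2A, which removes a stabilizing phosphate from MYC and also dephosphorylates AKT. PPP2CA, the catalytic subunit, had 993 and 443 reads in 6 peaks (fold 2.24, interval 2.0 to 2.51), and PPP2R1A, the scaffold, had 291 and 147 in 2 peaks (fold 1.98, interval 1.62 to 2.41).

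Of 12 genes for proteins that bind MYC mRNA, 8 lay on such strands and 4 had peaks, 29 in all, 4 of which reached a fold of at least 4. IGF2BP3, which shields its target mRNAs from decay, had 91 immunoprecipitate and 24 control reads in 4 peaks, a fold of 3.79 (interval 2.43 to 5.92), and 2 of these 4 peaks. In part its reads also lie in the span of MALSU1. AGO2, the slicer protein of RNA interference, which lies on chromosome 8 like MYC, had 661 and 273 reads in 14 peaks (fold 2.42, interval 2.10 to 2.79) and the other 2. Both of these AGO2 peaks hold 12 and 2 reads and stand at 4 with control reads counted as 3. One of the 2 at IGF2BP3 holds only 13 and 3 reads. HNRNPK, which binds MYC mRNA and DNA, had 2062 and 1083 reads in 9 peaks (fold 1.90, interval 1.77 to 2.05), and PTBP1, a splicing regulator, had 443 and 235 in 2 peaks (fold 1.89, interval 1.61 to 2.21). The median of the 29 peaks was 2.33, compared to 2.18 for the whole list, where 8.54% reached that fold. Of 26 genes induced by MYC, 13 lay on such strands and 6 had peaks. RCC1, a chromatin-bound exchange factor, had 664 and 315 reads (fold 2.11, interval 1.84 to 2.41), some of which also lie in the lncRNA SNHG3. BOP1, a factor of ribosome assembly on chromosome 8, had 374 and 171 reads (fold 2.19, interval 1.83 to 2.62). ODC1, the rate-limiting enzyme of polyamine synthesis, had 322 and 117 reads (fold 2.75, interval 2.23 to 3.40). These lists hold 58 peaks that overlap a listed gene, the plus-labelled one at KAT5 included. Of the 58, 0 passed Fisher's exact test with adjustment over all 4838 peaks, and 0 passed the binomial test. An unadjusted p under 0.05 in the exact test was found for 6 of them, at RUVBL2, PPP2CA, IGF2BP3, AGO2 and ODC1, compared to 8.78% of all peaks. The cell cycle genes AURKA, AURKB, CDT1 and CDK2, which have been linked to MINCR, had 0 peaks, but only 2 of these 4 lay on such strands.

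**Figure D4:**
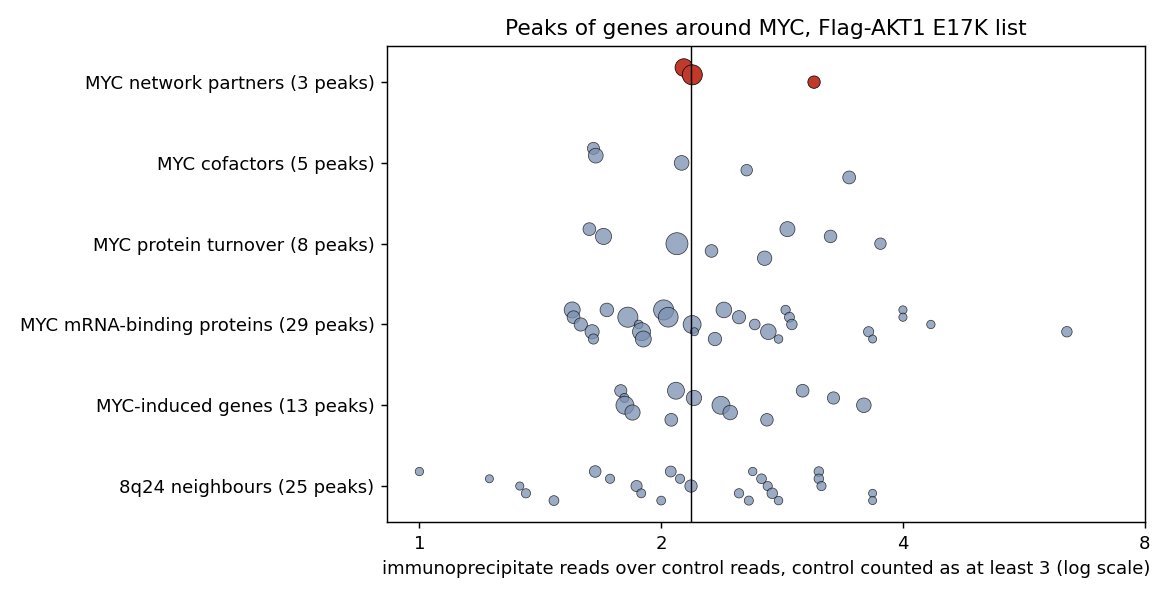
Fold of the Flag-AKT1 E17K peaks of each gene list on a log axis, with control reads counted as at least 3. Each point is a peak that overlaps a listed gene, the plus-labelled one at KAT5 included. The area of a point increases with the immunoprecipitate reads, points are spread vertically for visibility, and MYC is red. The line is the median of the whole list, 2.18, and the highest point is an IGF2BP3 peak with 32 and 5 reads at 6.40.

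For Flag-AKT1 WT the lists give no reads at MYC, PVT1 or MINCR, so no level and no difference between the plasmids was calculated for them. The absence of peaks was shared with every gene of chromosome 8 and is no measurement of MYC. Genes of the lists on other chromosomes had peaks there, among them HCFC1 (371 and 579 reads, fold 0.641, interval 0.563 to 0.730) and HUWE1 (440 and 597 reads, fold 0.737, interval 0.652 to 0.834), a cofactor and a ubiquitin ligase of MYC, both on chromosome X. In that list, whose median fold was 0.976, 1.24% of the 808 peaks had fewer immunoprecipitate reads than the rest in Fisher's exact test, as had 2 of 12 HCFC1 peaks and 2 of 24 HUWE1 peaks (lowest adjusted p = 1.44e-04 and 0.0137). The Flag-AKT1 E17K list has 0 peaks on chromosome X, so neither gene was measured there.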

How the data were processed

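RIP-seq peak lists were used as the authors deposited them, 1 per plasmid. Per the file headers each peak has a position, a strand label and 2 read counts, for the immunoprecipitate and a control library, which are whole numbers and not normalized. Reads per kilobase, log odds scores, p-values and an empirical false discovery rate are also listed and were not used. The submitters' processing notes name Bowtie2 2.2.8 and hg18. The peak caller and its filters are not given in the sources used here. Libraries were prepared after rRNA removal.

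Gene spans came from the RefSeq table of GRCh38.p14, whose strands were not available for chromosome 8 in the tables used here, and its coordinates are not printed. The 3 genes and the lists were chosen with earlier results of these data known. Named are the members, the listed genes with most reads and, on chromosome 8, the peaks with the 3 highest and lowest folds, the nearest peaks and the most similar ones. One peak that this rule names is not reported here. Numbers were processed with Python 3.11.15, numpy 2.4.6, pandas 2.3.3 and scipy 1.17.1, and plots drawn with matplotlib 3.10.9. Two-sided Fisher's exact tests compared reads of the immunoprecipitate and control libraries, each peak against the rest of its list with Benjamini-Hochberg adjustment at 0.05, and were tested on simulated data. Control counts under 3 were set to 3 for ranks, percentiles, medians and quartiles of folds. The same floor held for the mean log2 fold per peak and for the fold of at least 4. Alternatives were no floor, 0.5 added to both counts, peaks with most of their width in the span, the top peak only, other comparison peaks and an exact binomial test. The tests of peaks within MYC and PVT1, and leaving out each of their peaks, were added after the data were seen.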

Additional observations from a re-analysis of the deposited data

How the results depend on the processing

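With 1 library per condition, no replicate could be left out. Each fold set an immunoprecipitate against the control of the same plasmid. An analysis paired over replicates was not possible, because each condition has 1 library and the labels give no replicate numbers. The folds of MYC, PVT1 and MINCR stayed inside their intervals under every alternative, at 2.17 to 2.27 for MYC, 1.53 to 3.22 for PVT1 and 2.09 to 2.2 for MINCR. The PVT1 fold was lowest with only its first peak, 1.73 without the second and highest without the first. Differences near 0 on the log2 scale changed sign under some alternatives. MYC against MINCR was -0.00886 in place of 0.0149 with only the top peak of each. By the mean log2 fold per peak, with control reads counted as at least 3, MYC against PVT1 was -0.0279 in place of 0.0370. On that scale PVT1 against MINCR was 0.175 in place of -0.0220. Against the median fold (binomial test), MYC was at -0.0825 in place of 0.00161 beside other chromosome 8 peaks and MINCR at -0.0551 in place of 0.140, and MINCR at -0.0471 beside only peaks of similar immunoprecipitate reads. PVT1 was at 0.152 against the whole list and 0.0726 without AKT1 peaks, in place of -0.0355. Against peaks of the same label in lncRNA spans outside coding spans it was at 0.0710. On chromosome 8 only PVT1 itself has such peaks with the label minus, so those compared lay on other chromosomes. MYC passed the unadjusted threshold of 0.05 under 1 alternative, at 0.189 against the whole list (Fisher's exact p = 0.0487, with p from 0.254 to 0.685 under its other alternatives), and not without AKT1 peaks. In the Flag-AKT1 E17K list 13 peaks passed the test, 31 in the binomial test, 8 without AKT1 peaks and 7 at an adjusted p of 0.001. In the Flag-AKT1 WT list 25 passed, and 14 at 0.001. For these changes the cause was not tested. In all, 34 of 48 values kept direction and, where a test was run, side of the threshold. Some of these could not change. All member peaks have most of their width in the span, no summed control count was under 3, and MINCR has only 1 peak. MINCR, with 16 reads, and PVT1, with 76, allow only wide intervals.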
